A study of Homo sapiens with 9 samples.

Results

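The zinc-finger genes of chromosome 19 were taken as all protein-coding genes there, in GENCODE release 44 on GRCh37, whose symbol is ZNF followed by a digit. There were 248 of them among 19821 protein-coding genes, and the rest of the chromosome held 1188. Chromatin accessibility at these genes was read from FAIRE-seq, which enriches DNA not held by nucleosomes, in Jurkat cells (Clone E6-1), 1 clonal line of human T cell leukaemia. The series has 9 samples, 1 library each, of non-stimulated (NS), stimulated (ST), stimulus-withdrawn (SW) and re-stimulated (RS) cells pre-treated with DMSO or with 15 μM rottlerin, a PKC inhibitor, for 1 h, and a total input. Peak lists of 4 libraries were used, and 5 samples were not analysed here. By their labels these were NS cells after DMSO, SW cells after DMSO, NS cells after rottlerin and SW cells after rottlerin, where SW cells had received PMA and ionomycin for 4 h and were then washed and cultured for 1 day. The study's methods describe peak calling on its DMSO libraries, whereas the labels assign 2 of the 4 lists to rottlerin. Merging the lists, as below, gave exactly as many regions as those methods give for the pool of the DMSO libraries. The lists labelled rottlerin may therefore hold peaks of DMSO libraries of other states, and the labels are in doubt for every list but that of NS DMSO. Each list is given below by its label, and no effect of rottlerin or of stimulus withdrawal is drawn. With 1 library per label there were no replicates and no tests, and intervals are 95% intervals that cover counting error only.

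Most genes of this family encode a run of C2H2 zinc fingers, small zinc-bound folds that read DNA, often behind a KRAB domain. KRAB recruits the co-repressor TRIM28 and with it the H3K9 methyltransferase SETDB1 and the HP1 proteins, and many of these factors bind and silence transposable elements. The genes lie in clusters made by repeated tandem duplication, in which the gene bodies are known to carry H3K9me3 while many promoters stay active. By pattern search 247 of the 248 proteins had at least 1 finger, with a median of 12 and up to 36 in ZNF208, and 166 had the KRAB-A pattern. The exception was the readthrough gene ZNF816-ZNF321P.

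The identity of the cells was read from marker promoters. All 10 T cell marker genes tested had a promoter region, as did 1 of 12 markers of other cell types, KRT8, and 50.2% of all coding genes. Of the 10, 6 had one in all 4 lists, including CD3D, CD3E and LCK. The others were CD3G in NS DMSO only, CD5 in SW rottlerin only, LAT in 2 lists and ZAP70 in 3. On the autosomes, X and Y the lists held 18977 (NS DMSO), 20132 (SW DMSO), 23835 (NS rottlerin) and 30409 (SW rottlerin) peaks, and the read depth behind them is unknown from these files. Merging overlapping or touching peaks gave 40703 regions. Of these, 173 lay within a member gene or up to 10 kb before one of its TSSs. A promoter region overlapped the window from 1 kb before to 500 bp after a TSS (136 regions), an internal region lay elsewhere in the gene body (21), and the remaining 16 were upstream.

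The regions with the highest fold enrichment over total input are shown first, because their sequences bear on what the promoters share. The promoter regions of ZNF493 and ZNF875, the highest of the family, follow as their central 300 bases on GRCh37, 5′ to 3′ on the strand of the gene, with matches to CCGGAAG (ETS factors) and to CCAATCA (the CCAAT box, bound by NF-Y) on either strand in capitals. No matches overlapped in the sequences printed here.
ZNF493, + strand, chr19:21579733-21580032: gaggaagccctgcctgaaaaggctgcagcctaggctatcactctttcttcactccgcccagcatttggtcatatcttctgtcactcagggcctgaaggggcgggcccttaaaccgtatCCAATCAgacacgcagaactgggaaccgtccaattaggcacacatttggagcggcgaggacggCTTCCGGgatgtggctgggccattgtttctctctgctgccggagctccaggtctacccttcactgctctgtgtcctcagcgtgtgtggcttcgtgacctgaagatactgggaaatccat
ZNF875, + strand, chr19:37808533-37808832: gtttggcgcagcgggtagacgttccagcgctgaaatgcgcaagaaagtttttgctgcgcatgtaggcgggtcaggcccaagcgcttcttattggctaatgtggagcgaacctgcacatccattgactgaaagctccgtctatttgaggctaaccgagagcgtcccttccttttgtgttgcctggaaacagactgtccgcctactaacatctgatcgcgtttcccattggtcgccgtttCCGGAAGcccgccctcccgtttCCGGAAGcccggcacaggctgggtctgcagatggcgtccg
The ZNF493 region held 1 ETS and 1 CCAAT match, and ZNF875 held 2 ETS matches. ZNF816, shown next, had the highest promoter region without an NS DMSO peak, and ZNF557 had the largest difference below NS DMSO.
ZNF816, - strand, chr19:53466060-53466359: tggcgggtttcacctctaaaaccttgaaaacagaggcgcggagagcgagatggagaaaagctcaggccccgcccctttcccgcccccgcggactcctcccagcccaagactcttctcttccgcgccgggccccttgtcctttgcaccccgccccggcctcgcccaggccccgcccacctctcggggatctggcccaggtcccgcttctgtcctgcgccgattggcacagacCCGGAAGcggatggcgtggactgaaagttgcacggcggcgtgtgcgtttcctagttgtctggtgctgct
ZNF557, + strand, chr19:7069295-7069594: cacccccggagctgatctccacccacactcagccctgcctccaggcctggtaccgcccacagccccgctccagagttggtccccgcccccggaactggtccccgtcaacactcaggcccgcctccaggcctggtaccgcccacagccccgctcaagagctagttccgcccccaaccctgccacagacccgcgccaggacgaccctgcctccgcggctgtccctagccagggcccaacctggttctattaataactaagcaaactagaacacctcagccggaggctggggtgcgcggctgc
The start site of ZNF486, 250 bases before to 50 bases from the TSS, is shown, chosen after the values had been seen, because it carries both motifs while no peak of any list lay in the promoter window of the gene.
ZNF486, + strand, chr19:20277773-20278072: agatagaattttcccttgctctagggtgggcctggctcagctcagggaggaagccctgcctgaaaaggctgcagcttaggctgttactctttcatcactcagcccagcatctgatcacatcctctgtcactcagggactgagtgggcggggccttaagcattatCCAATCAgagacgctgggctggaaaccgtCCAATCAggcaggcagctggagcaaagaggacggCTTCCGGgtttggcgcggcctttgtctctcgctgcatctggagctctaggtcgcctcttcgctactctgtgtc
ZNF486 had 1 ETS match and 2 CCAAT matches, and 95.1% of the 50-base words in its promoter window occurred once in the genome. The motifs were therefore found at start sites with and without a peak.

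Promoters of the family were accessible about as often as those of other genes. A promoter region was present at 136 of 248 members (54.8%, 48.6–60.9), compared with 50.6% (47.7–53.4) of the other coding genes of chromosome 19, 59.8% (53.8–65.6) of ZNF genes on other chromosomes and 50.2% of all coding genes. The remaining 112 members had no promoter region, and 103 had no region of any kind. By list, a promoter peak was found at 106 members (42.7%) for NS DMSO, 109 (44%) for SW DMSO, 121 (48.8%) for NS rottlerin and 129 (52.0%) for SW rottlerin. The same count over all coding genes went from 38.4% through 39.5% and 42.9% to 47.4%, so both were ordered as the lists are by length.

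Within the gene bodies the picture differed. The 21 internal regions lay in 7.55 Mb of gene body, a density of 2.78 per Mb, whereas the other coding genes of the chromosome had 17.1 per Mb, ZNF genes elsewhere 12.8 and all coding genes 14.0. An internal region was found in 18 members (7.26%, 4.64–11.2). The share was 24.0% (21.6–26.5) of other chromosome 19 genes, 30.3% (25.1–36.1) of ZNF genes elsewhere and 36.6% (35.9–37.3) of all coding genes. None of these intervals overlapped that of the members. There were 6.48 promoter regions per internal region in the family, 1.30 in the rest of the chromosome, 0.960 in ZNF genes elsewhere and 0.536 over all coding genes. With the 5′ end of each gene as its only TSS, the density was 5.70 per Mb in the members, 22.5 in the rest of the chromosome, 15.3 in ZNF genes elsewhere and 15.8 in all coding genes. Reads from repeated sequence cannot be placed with certainty, and a median of 99.3% of the 50-base words in the coding sequence of the members occurred once. Introns were not examined in this way, and the part of repeats in the low density was not tested.

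**Figure D1:**
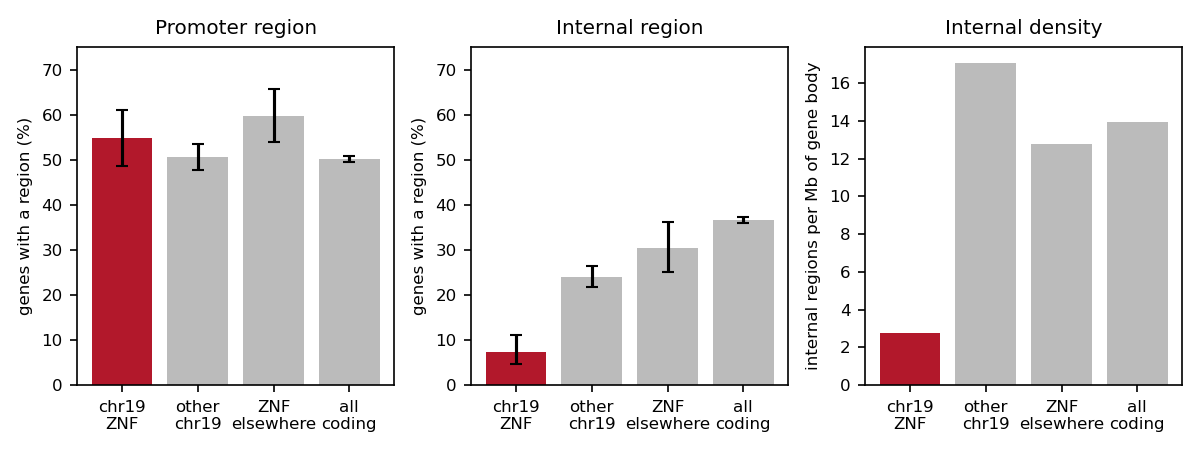
The bars give the percent of genes with a promoter region (left), the percent with an internal region (middle) and the internal regions per Mb of gene body (right), for the 248 ZNF genes of chromosome 19 (red) and 3 other gene sets (grey), with 95% Wilson intervals as error bars. The members had promoter regions at 54.8%, near the other sets, and internal regions at 2.78 per Mb, the lowest of the 4 bars.

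The promoter regions lay close to the TSS, which is in part set by their definition. Their median width was 296 bp, compared with 389 bp for coding promoter regions and 294 bp for all merged regions. The median mid-point lay at −57.5 bp from the nearest TSS of a member (negative values are before it). The mid-point of 126 of 136 (92.6%) was within 250 bp of one, a share not computed for coding promoter regions. Some neighbouring members shared a region. There were 10 promoter regions that served 2 or more members, such as those of ZNF490 and ZNF791, ZNF565 and ZNF146, and ZNF540 and ZNF571, each in all 4 lists, and 18 regions also lay at the promoter of a coding gene outside the family.

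Promoter regions of the family were mostly common to the lists. Of the 136 regions, 97 (71.3%, 63.2–78.3) had a peak in all 4 lists, compared with 61.0% (60.0–62.0) of the promoter regions of all coding genes and 26.6% of all merged regions. Where peaks had to cover 50% of a region, 86 of 136 (63.2%, 54.9–70.9) were in all 4 lists. The share of coding promoter regions was not computed under that setting. Without that limit, 32 of the 136 (23.5%, 17.2–31.3) had no NS DMSO peak, compared with 28.8% of coding promoter regions and 53.5% of all merged regions. ZNF491 and ZNF606 each had a promoter region of the NS DMSO list alone, 1.47% of the 136, where 1.86% of coding promoter regions and 7.83% of all merged regions were of this kind. Of the 32 without an NS DMSO peak, 10 were in both rottlerin-labelled lists alone, 9 in the SW rottlerin list alone, the longest list, 5 in the NS rottlerin list alone, 5 in all 3 other lists, 2 in both SW lists and 1 in the SW DMSO list alone. In the same order these were 7.35%, 6.62%, 3.68%, 3.68%, 1.47% and 0.735% of the 136 regions. Over coding promoter regions the shares were 6.51%, 9.07%, 2.94%, 5.66%, 3.12% and 1.07%.

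Fold enrichment over total input was highest at ZNF493, a KRAB gene with 18 fingers. Its promoter region at chr19:21579753-21580012 had an enrichment of 5.49 in the NS DMSO list, 7.09 in SW DMSO, 9.22 in NS rottlerin and 6.80 in SW rottlerin. It was thus lowest in NS DMSO and highest in NS rottlerin. ZNF875, with 13 fingers, came next at chr19:37808501-37808865, with 5.75, 6.29, 8.47 and 8.52 in the same order of lists. Here both DMSO-labelled lists lay below both rottlerin-labelled lists. ZNF254 had 7.31, 5.78, 7.06 and 8.38 in the same order, so that SW DMSO was the lowest and SW rottlerin the highest list. ZNF304, which is known to recruit TRIM28, had 6.19, 6.01, 5.89 and 7.27, with only SW rottlerin apart. Highest values between 6.81 and 7.17 were found at ZNF616, ZNF765, ZNF416, ZNF160, ZNF443 and ZNF763, all of them present in every list.

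At the other end, ZNF428, which encodes a small protein with 1 finger, had the lowest enrichment among promoter regions present in all 4 lists, ranked by the highest value of a region, with 2.79 in NS DMSO, 2.85 in SW DMSO, 2.63 in NS rottlerin and 2.72 in SW rottlerin. These 4 values lay close together. ZNF181, ZNF549, a second region of ZNF581, and ZNF324 followed, with highest values from 3.10 to 3.48. Among the promoter regions without an NS DMSO peak, the one shared by ZNF816 and its readthrough had 4.91 in SW DMSO, 4.58 in NS rottlerin and 5.64 in SW rottlerin, and the one shared by ZNF580 and ZNF581 had 3.75, 4.71 and 5.37. ZNF561 and ZNF100 also had a peak in the 3 other lists. ZNF431 (5.29) and ZNF845 (4.88) had a peak in the NS rottlerin list alone, while ZNF738, ZNF83, ZNF761 and ZNF230 had peaks in both rottlerin-labelled lists and in neither DMSO-labelled list. The signal of these regions in the lists without a peak is not given by the files. ZNF491 had 4.71 and ZNF606 had 3.67 in NS DMSO, the single list with a peak in these regions. The ZNF491 region lay at −881 bp from the TSS, and a second promoter region of this gene, at −4 bp, had 3.99 in NS rottlerin and 3.42 in SW rottlerin. ZNF606 had no other promoter region.

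**Figure D2:**
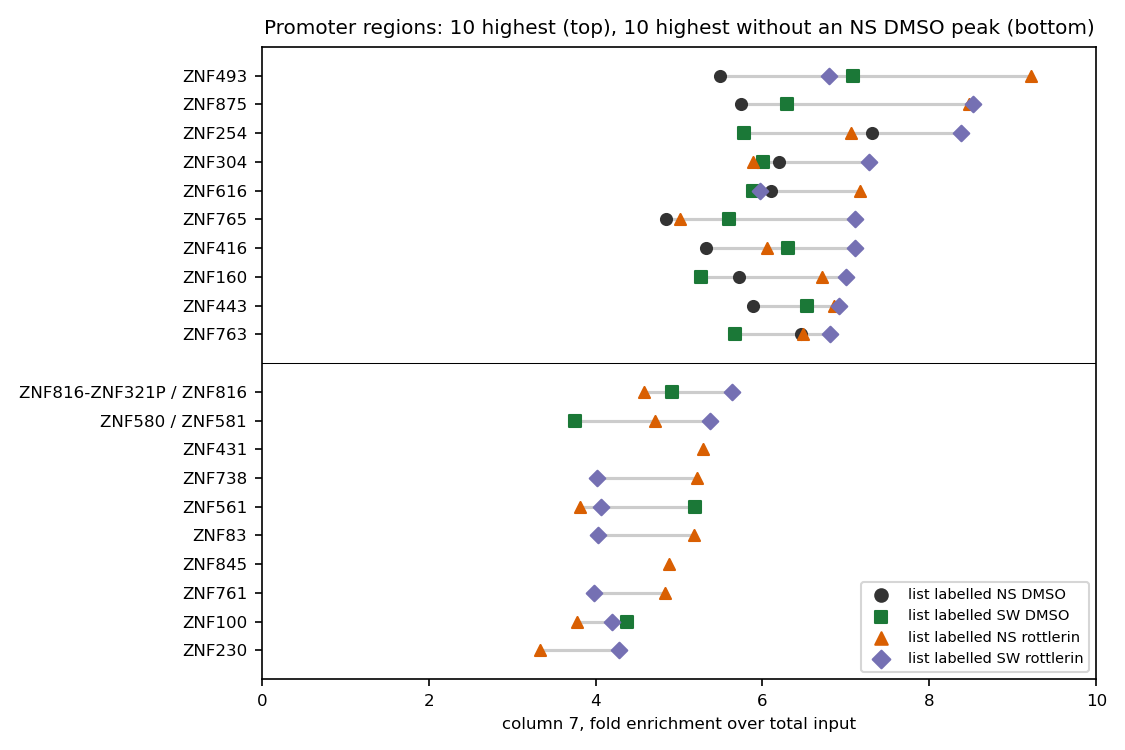
Each point is the fold enrichment over total input (column 7 of the peak files) of a promoter region in 1 list, for the 10 highest regions (top) and the 10 highest without an NS DMSO peak (bottom), and a missing symbol means that the list had no peak there. ZNF493 spans 5.49 to 9.22 and is the widest of the top group, and the bottom group stays between 3.34 and 5.64.

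Where a promoter region had a peak in both lists, its enrichment hardly differed from NS DMSO. The median log2 ratio to NS DMSO was −0.04 for SW DMSO (98 regions, −0.08 to 0.01), 0.04 for NS rottlerin (100 regions, −0.00 to 0.10) and 0.10 for SW rottlerin (101 regions, 0.05 to 0.15). Over all coding promoter regions the medians were −0.01, 0.05 and 0.11, and those of the family lay beside them. A ratio of 1.5-fold or more above NS DMSO was found at 0 of 98 member promoter regions for SW DMSO, at 1 of 100 for NS rottlerin, which was ZNF493 (log2 ratio 0.75), and at 0 of 101 for SW rottlerin. Over all merged regions with both peaks the shares were 1.67%, 3.19% and 4.5%. A ratio of 1.5-fold or more below NS DMSO was found at 1 region for SW DMSO, at 0 for NS rottlerin and at 1 for SW rottlerin, against shares of 2.18%, 1.38% and 1.54% over all merged regions. Both of these were ZNF557, whose region at chr19:7069141-7069748 had 5.08 in NS DMSO, 3.08 in SW DMSO, 3.81 in NS rottlerin and 3.12 in SW rottlerin. This region also lay at the promoter of a coding gene outside the family. NS DMSO was the highest of the 4 there, with log2 ratios of −0.72 for SW DMSO and −0.70 for SW rottlerin. These lower calls were 1.02% and 0.99% of member promoter regions, compared with 0.469% and 0.167% of the promoter regions of all coding genes, and each rests on 1 region.

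Several members kept the same direction in more than 1 list. The 3 ratios of a region share its NS DMSO value, and these regions were picked for high or low ratios. Agreement between lists is therefore in part built in. ZNF584 was low in every list relative to NS DMSO, with 6.22 in NS DMSO and 4.30, 4.92 and 4.75 in SW DMSO, NS rottlerin and SW rottlerin. ZNF260 was level in SW DMSO (3.91 beside 3.89 in NS DMSO) and higher in both rottlerin-labelled lists (5.45 and 5.66). ZNF8 went from 4.04 in NS DMSO to 5.03, 5.14 and 5.95. The other regions ranked highest by the ratios included ZNF430 and ZNF14 (log2 ratios of 0.55 and 0.46 for NS rottlerin), ZNF765 (0.55) and ZNF627 (0.49) for SW rottlerin, the shared promoter of ZNF790 and ZNF345 (0.43) and ZNF566 (0.28) for SW DMSO. On the low side stood ZNF709 (−0.37) and ZNF527 (−0.35) for SW DMSO, ZNF333 (−0.36), ZNF460 (−0.32) and ZNF805 (−0.28) for NS rottlerin, and ZNF653 (−0.33), ZNF101 (−0.19) and ZNF497 (−0.14) for SW rottlerin. ZNF333, ZNF653 and ZNF497 lay below NS DMSO in all 3 lists. ZNF566, ZNF765, the ranked region of ZNF627 and the shared promoter of ZNF790 and ZNF345 lay above NS DMSO in all 3. That ZNF627 region, the ZNF333 region and the shared promoter of ZNF790 and ZNF345 each also lay at the promoter of a coding gene outside the family. A second promoter region of ZNF627 had 5.76 in NS DMSO, 5.00 in SW DMSO, 6.32 in NS rottlerin and 5.80 in SW rottlerin, so it was lower in SW DMSO. None of these reached 1.5-fold, and without replicates none can be told from the spread between libraries.

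**Figure D3:**
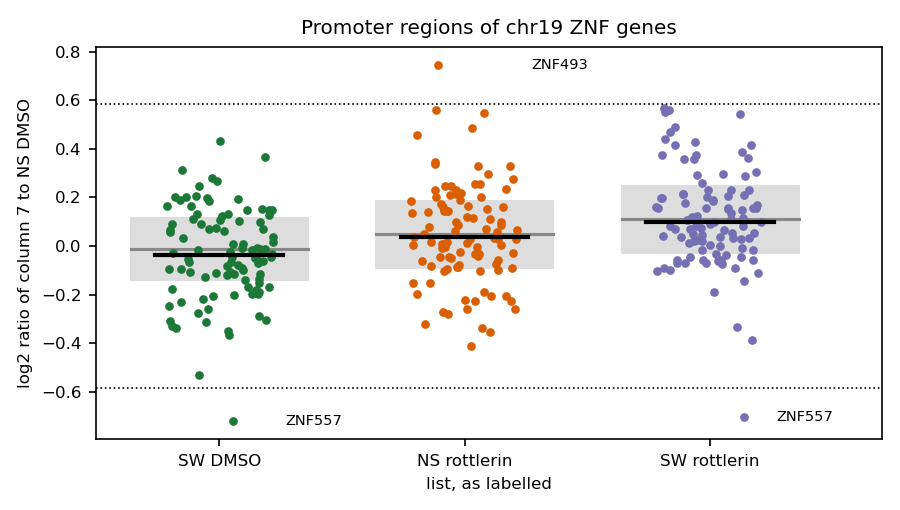
Each point is the log2 ratio of fold enrichment in 1 list to that in NS DMSO at a member promoter region with a peak in both (98, 100 and 101 regions), black bars are the member medians, grey bars and boxes are the median and quartiles over all coding promoter regions, and dotted lines mark 1.5-fold. The medians of −0.04, 0.04 and 0.10 lie within the grey boxes, and only ZNF557 and ZNF493 pass a dotted line.

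The start-site sequences of the family shared motifs. CCGGAAG, on either strand, was found in the 300 bases at the start site (250 before to 50 from the TSS) of 111 of 248 members (44.8%, 38.7–51.0), compared with 14.6% (12.7–16.8) of other coding genes of the chromosome, 31.4% (26.1–37.3) of ZNF genes elsewhere and 14.0% of all coding genes. CCAATCA, added after the sequences had been seen, was found at 72 members (29%, 23.7–35.0), at 15.5% (11.7–20.4) of ZNF genes elsewhere and at 8.81% of all coding genes. Both were found together at 32 members (12.9%, 9.29–17.6), at 7.20% (4.66–11) of ZNF genes elsewhere, whose interval overlaps, and at 1.21% of all coding genes. The TATA box sequence TATAAA was found at 2.82% of members and 9.71% of all coding genes, and the Sp/KLF sequence GGGCGG at 67.7% and 61.3%. NRF1 (TGCGCATGC), ZNF143 (ACTACAATT), YY1 (AAGATGGCG) and CRE (TGACGTCA) sequences were at 4.03%, 1.61%, 4.03% and 3.63% of members, and at 2.04%, 0.439%, 2.83% and 2.72% of all coding genes. AP1 (TGANTCA), NFAT (GGAAAA), RUNX (TGTGGTT) and bHLH or ZEB (CACCTG) sequences were at 5.24%, 25.8%, 5.24% and 16.9% of members, and at 5.44%, 20.8%, 3.41% and 20.4% of all coding genes. The members are copies of one another in part, so these are shares of related sequences, not independent observations.

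The motifs also kept a place. In the members the mid-points of the 123 ETS matches had their median at −15 bp from the TSS (quartiles −32 and 5.5 bp), where the matches of all coding genes had theirs at −42 bp. The 106 CCAAT matches lay at a median of −60 bp (quartiles −82.5 and −49 bp), and 99 of the 106 were written as CCAATCA on the strand of the gene, whereas 1039 of the 2053 matches over all coding genes were. Among words of 8 bases, ranked by the difference in share, TCCAATCA came first, at 24.2% of members and 1.44% of other coding genes. AGGCCCCG (25% and 6.89%) and GTCACTCA (18.1% and 1.04%) came first among the words outside the motifs searched, and the latter lies in the ZNF493 and ZNF486 sequences above as gtcactca.

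**Figure D4:**
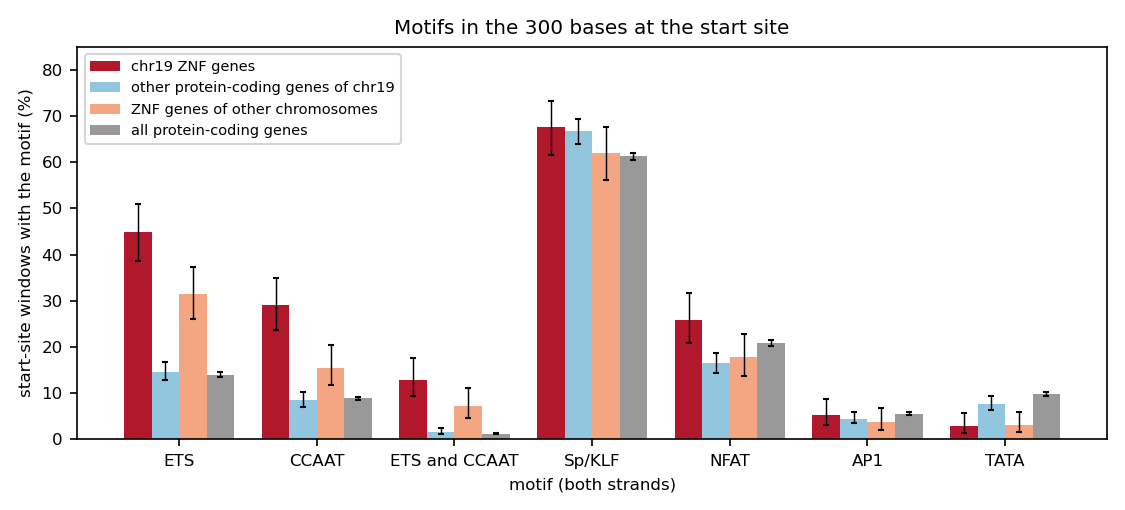
Bars give the percent of start-site windows of 300 bases with each motif on either strand, for 4 gene sets, with 95% Wilson intervals as error bars. ETS (44.8%), CCAAT (29%) and their joint presence (12.9%) are highest in the ZNF genes of chromosome 19, while Sp/KLF bars lie between 61.3% and 67.7%.

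These motifs were about as common in members with and without a promoter region. ETS matches were found at 42.6% of members with a promoter region and 47.3% of those without, and CCAAT matches at 28.7% and 29.5%. Within the promoter regions themselves, the central 300 bases held an ETS match in 40.4% (32.6–48.8) and a CCAAT match in 27.9% (21.1–36), compared with 17% and 8.76% of promoter regions of all coding genes. The median number of CpG in the window was 22 in members with a promoter region and 18 in those without. Of the 18 members with fewer than 10 CpG, 4 (22.2%, 9.0–45.2) had a promoter region, compared with 132 of the other 230 (57.4%, 50.9–63.6). Median GC content was 60.7% in members with a promoter region and 58.3% in those without. Member promoter regions held fewer CpG than coding promoter regions, with a median of 21 beside 25.

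The proteins were compared by their domains. A promoter region was found at 89 of 166 members with the KRAB-A pattern (53.6%, 46.0–61.0) and at 47 of 82 without it (57.3%, 46.5–67.5). Members with at least 10 fingers had one in 51.4% (44.2–58.5) of cases and those with fewer in 64.6% (52.5–75.1), and the intervals of both pairs overlap. Reads from near-identical copies cannot be placed with certainty. Of the 25 members with under 90% of promoter 50-base words occurring once, 9 (36%, 20.2–55.5) had a promoter region, compared with 127 of 223 (57.0%, 50.4–63.3). The lowest such share was 72.4%. The pair ZNF417 and ZNF587 is near-identical in coding sequence, with 33.4% of words occurring once in each, a value that does not describe their promoters. A promoter region was found at ZNF417 only, in all 4 lists, and the part of read placement in this was not tested.

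The share of members with a promoter region was compared along the chromosome. The 248 members fell into 20 runs when neighbours up to 500 kb apart were joined, and 6 runs held more than 20 members. In the run from ZNF264 to ZNF446 at the end of the long arm, 29 of 43 members (67.4%, 52.5–79.5) had a promoter region, 25 of them in all 4 lists. In the runs from ZNF653 to ZNF791 and from ZNF565 to ZNF573 the counts were 17 of 25 (68.0%, 48.4–82.8) and 18 of 26 (69.2%, 50.0–83.5). Shares were lower in the run from ZNF101 to ZNF254, next to the centromere, with 15 of 37 (40.5%, 26.3–56.5). They were also lower from ZNF575 to ZNF180 with 10 of 23 (43.5%, 25.6–63.2), and from ZNF175 to ZNF331 with 15 of 40 (37.5%, 24.2–53.0). The intervals of all 6 runs overlap, and the difference between runs was not tested. The ZNF101 to ZNF254 run had a median of 10 CpG at the start site, the lowest of these 6 runs. CpG did not follow the share of members with a promoter region. The ZNF175 to ZNF331 run, with the lowest share, had the highest median, 24.5, and the ZNF653 to ZNF791 run had 16. In the run from ZNF175 to ZNF331, 8 of 14 promoter regions had no NS DMSO peak, compared with 23.5% of all member promoter regions and 28.8% of coding promoter regions. This was the highest such count of the 6 runs, rests on few regions and was not tested. ZNF816, ZNF83, ZNF845 and ZNF761 lie in this run.

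**Figure D5:**
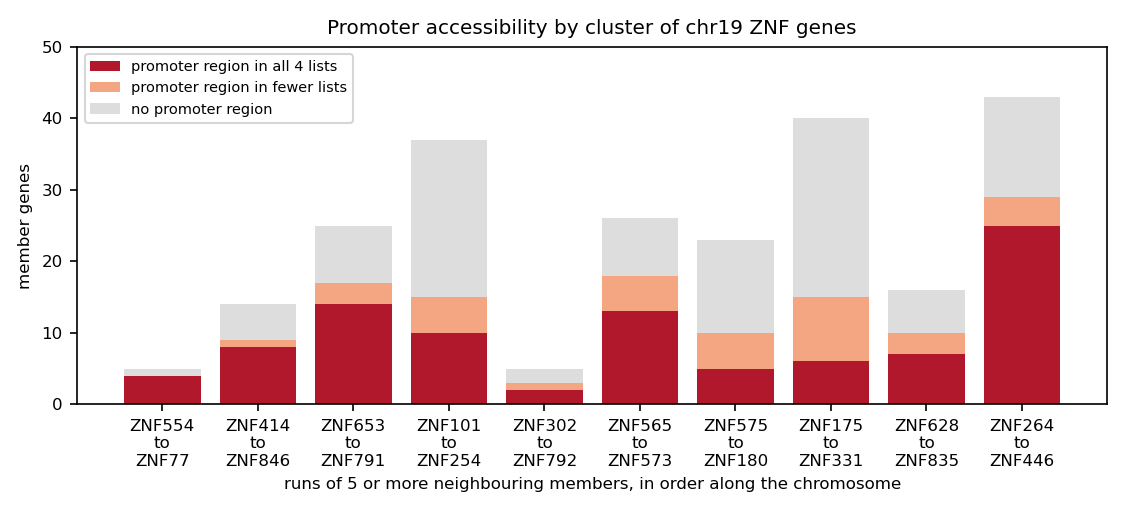
Stacked bars give the members of each run of 5 or more neighbouring genes, in order along chromosome 19, by whether a promoter region was found in all 4 lists (red), in fewer lists (orange) or not at all (grey). The last run, ZNF264 to ZNF446, has 25 of 43 members in red and the ZNF175 to ZNF331 run has 6 of 40.

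Some well-known members, chosen for what is known of them after the values had been seen, were spread over these classes. ZNF91, which silences SVA elements and has 31 fingers, had a promoter peak in the NS rottlerin list alone (4.09). ZNF93, which silences a group of LINE-1 elements, and ZNF274, which brings SETDB1 to the 3′ ends of ZNF genes, had no promoter region. The imprinted gene ZNF331 had one in all 4 lists, with 4.41 in NS DMSO, 3.50 in SW DMSO, 4.95 in NS rottlerin and 4.63 in SW rottlerin.

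The internal regions were few. Of the 21, 4 (19%, 7.67–40) were in all 4 lists, compared with 15.6% of internal regions of all coding genes, and 14 (66.7%, 45.4–82.8) had no NS DMSO peak, compared with 61.0%. With the 5′ end of the gene as the only TSS, 19 of 43 internal regions (44.2%) were in all 4 lists, so this share depends on which start sites are counted. By mid-point, 10 lay in introns of the canonical transcript, 9 within the gene but outside that transcript, 1 in the coding and 1 in the untranslated part of a last exon, and 7 lay within 2 kb of a member TSS. ZNF490 overlapped 3 of them, and ZNF627, ZNF44, ZNF791 and ZNF584 overlapped 2 each, while 9 of the 21 lay in the run from ZNF653 to ZNF791. In 5 members, ZNF536, ZNF507, ZNF792, ZNF577 and ZNF264, an internal region was found without a promoter region.

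The highest internal region, at ZNF584 (chr19:58912525-58912984), had 7.41 in NS DMSO, 8.44 in SW DMSO, 8.42 in NS rottlerin and 8.22 in SW rottlerin, above every promoter region of the family in SW DMSO. It lies at the start of a non-coding transcript of the gene, at −7261 bp from the nearest coding TSS of a member, and its 300 bases held 32 CpG, where member promoter regions had a median of 21. ZNF714 was the other internal region at such a start. The second, in an intron of ZNF44 (chr19:12400127-12400458), had no NS DMSO peak and had 5.03 in SW DMSO, 6.89 in NS rottlerin and 7.51 in SW rottlerin. Its sequence held 2 CpG and 2 matches to the AP1 sequence TGANTCA. The central bases of both follow, with CCAATCA in capitals for ZNF584 and TGANTCA in capitals for ZNF44.
ZNF584, + strand, chr19:58912605-58912904: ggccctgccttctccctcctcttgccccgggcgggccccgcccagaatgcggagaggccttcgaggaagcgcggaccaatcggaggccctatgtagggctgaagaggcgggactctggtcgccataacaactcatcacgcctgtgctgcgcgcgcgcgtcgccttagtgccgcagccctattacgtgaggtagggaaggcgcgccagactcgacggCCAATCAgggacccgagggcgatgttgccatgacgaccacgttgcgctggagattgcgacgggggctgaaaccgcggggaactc
ZNF44, - strand, chr19:12400143-12400442: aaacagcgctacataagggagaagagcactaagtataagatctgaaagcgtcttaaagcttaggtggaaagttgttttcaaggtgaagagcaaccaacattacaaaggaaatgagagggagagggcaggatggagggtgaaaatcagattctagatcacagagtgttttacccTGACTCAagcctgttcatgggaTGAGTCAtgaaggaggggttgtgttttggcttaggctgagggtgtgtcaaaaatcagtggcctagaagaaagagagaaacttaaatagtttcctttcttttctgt
The AP1 sequence was present in 8 of the 21 internal regions (38.1%, 20.8–59.1) and in 20.9% of internal regions of all coding genes, which lies within that interval. Median CpG was 2, beside 3 in internal regions of all coding genes, and no internal region held the ETS sequence, found in 2.19% of those of all coding genes.

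The region shared by ZNF490 and ZNF791 (chr19:12724516-12724869) had 4.63, 4.94, 5.01 and 6.68 in NS DMSO, SW DMSO, NS rottlerin and SW rottlerin, and the ZNF490 intron region had 3.88, 5.11, 5.18 and 6.61. In both, NS DMSO was lowest and SW rottlerin highest, and the latter had a log2 ratio of 0.77, the 1 of 6 internal regions with both peaks past 1.5-fold in SW rottlerin, where 6.83% of internal regions of all coding genes were. ZNF555 had an internal region in all 4 lists, in its last exon, with 4.71, 4.65, 4.12 and 4.00. ZNF577, ZNF792, ZNF57 and the region of ZNF586 and ZNF552 had peaks in both rottlerin-labelled lists only, and ZNF700 in SW rottlerin only. Of the 16 upstream regions, 6 (37.5%, 18.5–61.4) were in all 4 lists, compared with 26.6% of all merged regions. Among the 16, 3 lay at a promoter of a coding gene outside the family, and all 3 were in all 4 lists.

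The promoters of a chosen list of co-repressor genes were accessible in these cells, most of them in every list. All 17 genes examined had a promoter region in at least 1 list, compared with 50.2% of all coding genes. Of the 17, 15 had one in all 4 lists, a count for which the share of all coding genes was not computed. TRIM28, the KRAB co-repressor, had the highest enrichment, with 8.45 in NS DMSO, 7.80 in SW DMSO, 7.93 in NS rottlerin and 8.58 in SW rottlerin, all within a narrow range. SETDB1 had 4.30, 4.57, 4.91 and 5.07, and its partner ATF7IP had 5.18, 3.6, 4.74 and 4.45. ATF7IP had 5 promoter regions and CBX5, PPHLN1, CHD3 and CHD4 had 2 each, and values are given for 1 region of a gene. The HP1 genes CBX1, CBX3 and CBX5 were in all 4 lists, with values from 3.30 at CBX1 to 5.96 at CBX5. Of the HUSH complex and its partners, MPHOSPH8, PPHLN1 and MORC2 were in all 4 lists and TASOR in SW rottlerin alone (2.90). DNMT1 and UHRF1, which maintain DNA methylation, the remodellers SMARCAD1, CHD3 and CHD4, and the deacetylase HDAC1 were in all 4 lists, while HDAC2 had a peak in NS rottlerin (2.88) and SW rottlerin (3.59) only.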

How the data were processed

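FAIRE-seq libraries of Jurkat cells were analysed from the peak lists as deposited. The authors' peaks are MACS2 broad peaks of a library over 1 total input, on hg19. The upstream tools named in the study's methods are Bowtie2 for alignment, CutAdapt for trimming and Picard for duplicates. Versions are not given in the sources used here. Each deposited list gives a score, a fold enrichment as a ratio over total input, and the −log10 of the p-value and q-value. The highest q-value in any list was 0.0983, so a limit of 0.05 was tried as an alternative. Samples were grouped by their labels, and 1 library per label allows no test.

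Peaks on the autosomes, X and Y were merged where they overlapped by 1 bp or touched, and a region took its highest fold enrichment in each list. Ratios were taken where both lists had a peak. TSSs are those of protein-coding transcripts in GENCODE release 44 on GRCh37, whose coordinates are those of hg19, and sequences were read from that genome, not from the cells. Motifs were matched exactly on both strands. Fingers were counted by the pattern C..C, 12 residues, H, 3 to 5 residues, H in the canonical coding sequence, with all frames read for 1 member whose sequence is broken on this build. Uniqueness is the share of 50-base words occurring once in the genome. Shares have 95% Wilson intervals, and medians have binomial intervals over regions. Named genes are those with the highest and lowest enrichment or ratio, in numbers of 5 or 10 for each class and list. Some sequences and 1 neighbouring gene are not reported here. The members, lists and motifs were chosen with earlier results of these data known. Merging and assignment were tested on simulated data, where all 2000 planted regions were recovered. Python 3.11.15, numpy 2.4.6, scipy 1.17.1 and matplotlib 3.10.9 were used.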

Additional observations from a re-analysis of the deposited data

Results flagged for a closer look

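At the promoter regions of the ZNF genes of chromosome 19, the median log2 ratio of the SW to the NS list was −0.0383 (−0.0837 to 0.0103) between the DMSO-labelled lists. Between the rottlerin-labelled lists it was 0.0710 (0.0236 to 0.118). The 2 medians had opposite signs, but the interval of the DMSO-labelled pair spans 0. The difference was not tested, since each list is 1 library, and the labels of these lists other than NS DMSO are in doubt. Over all coding promoter regions the medians were −0.01 and 0.07.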

How the results depend on the processing

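No paired analysis was possible because each label has 1 library and no result comes from a test. Over 14 results, alternatives gave 161 values, of which 152 stayed within the interval of the value reported or within 1.5 times it, 9 moved and 0 reversed. With the 5′ end of the gene as the only TSS, 48.4% of members had a promoter region, and 44.2% of internal regions (19 of 43) were in all 4 lists, because promoter regions of other TSSs then count as internal. Internal density was then 5.70 per Mb, and the other gene sets, added after seeing the data, had 15.3 to 22.5. The number of promoter regions past 1.5-fold from NS DMSO, 1 in each list, was 0 for SW DMSO and 0 for SW rottlerin where peaks had to cover 50% of a region, 0 for SW rottlerin with every list trimmed to an equal number of peaks, and 0 in each list at 2-fold. Calls past 1.5-fold therefore rest on ZNF493 and ZNF557. With TSSs of every transcript, an alternative chosen after seeing the data, 55.2% of members had a promoter region. Leaving out the longest list, SW rottlerin, gave 51.2% of members with a promoter region and 24.5% of member regions without an NS DMSO peak, and lists of equal length gave 25.5% for the latter.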
